A study of Homo sapiens with 4 samples.

Results

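YAP1, WWTR1 (which encodes TAZ), the transcription factor genes TEAD1 to TEAD4, the kinase genes LATS1 and LATS2, and the target genes CCN1 and CCN2 (formerly CYR61 and CTGF) were followed across the arrays. They were chosen by name: every probe set whose annotation names only 1 of these genes was taken, which gave 31 probe sets for 10 of the 18132 genes tested. Total RNA was profiled from MDA-MB-231 cells, a triple-negative human breast cancer line, on 4 arrays. In 2 arrays, the control shRNA group, the cells carried a control shRNA. In the other 2, the ELK3 shRNA group (ELK3 KD below), they carried a stably integrated shRNA against ELK3, an ETS-family transcription factor that works together with serum response factor (SRF). Per the methods of the study, both shRNAs came by retrovirus into MDA-MB-231 cells that carry GFP and luciferase, while the labels name only MDA-MB-231. The labels call the 2 arrays of a group biological repeats but do not say whether these were separate lines or cultures of 1 line, and p-values therefore cover no more than the spread among these 4 arrays. The methods of the study describe more than 1 stable line of each kind.

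In the Hippo pathway the LATS kinases phosphorylate YAP and TAZ, which are then held in the cytoplasm and degraded. Unphosphorylated YAP and TAZ enter the nucleus and, as they cannot bind DNA themselves, act on genes through TEAD proteins. CCN1 and CCN2, which encode secreted matricellular proteins, are among the genes most often used as readouts of YAP and TAZ, and LATS2 is itself a target that feeds back on the pathway. The arrays measure transcripts, so the phosphorylation and location of YAP and TAZ were not measured.

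TEAD proteins bind the letters GGAATG, a motif first described as the MCAT element. The RefSeq promoter table of GRCh38.p14, with windows from 250 bases before to 50 bases after each annotated start, matched 7 of the 10 genes, with 10 windows between them. TEAD1, TEAD4 and CCN1 were the others. GGAATG was searched on both strands and occurred at least once in 14% of all 35116 windows and at least 3 times in 0.128%. The sequence before the start of CCN2 is shown because it held 3 matches, and that of YAP1 because it held the only other match upstream of a start. The capitals mark GGAATG. The CCN2 stretch is chr6:131951373-131951622 (minus strand) and the YAP1 stretch is chr11:102110197-102110446 (plus strand), both written 5′ to 3′ and ending at the base before the start.
CCN2: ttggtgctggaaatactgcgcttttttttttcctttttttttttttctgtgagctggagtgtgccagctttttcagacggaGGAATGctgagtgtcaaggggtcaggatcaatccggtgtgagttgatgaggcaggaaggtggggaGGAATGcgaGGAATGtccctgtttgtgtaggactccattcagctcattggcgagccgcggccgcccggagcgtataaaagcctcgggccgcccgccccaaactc
YAP1: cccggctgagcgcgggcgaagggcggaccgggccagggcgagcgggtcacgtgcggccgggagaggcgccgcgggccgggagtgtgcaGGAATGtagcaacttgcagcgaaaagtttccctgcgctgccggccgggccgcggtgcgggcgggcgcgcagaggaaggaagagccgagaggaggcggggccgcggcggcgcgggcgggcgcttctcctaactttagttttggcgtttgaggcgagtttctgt

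In CCN2 the matches began at positions -169, -104 and -95 from the start, all on the strand of the gene. The match in YAP1 began at position -162, and 1 in LATS2 began at position 10. The windows of WWTR1, TEAD2, TEAD3 and LATS1 held none. A match is only a run of letters, and no match says only that these letters are not in this window.

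**Figure D1:**
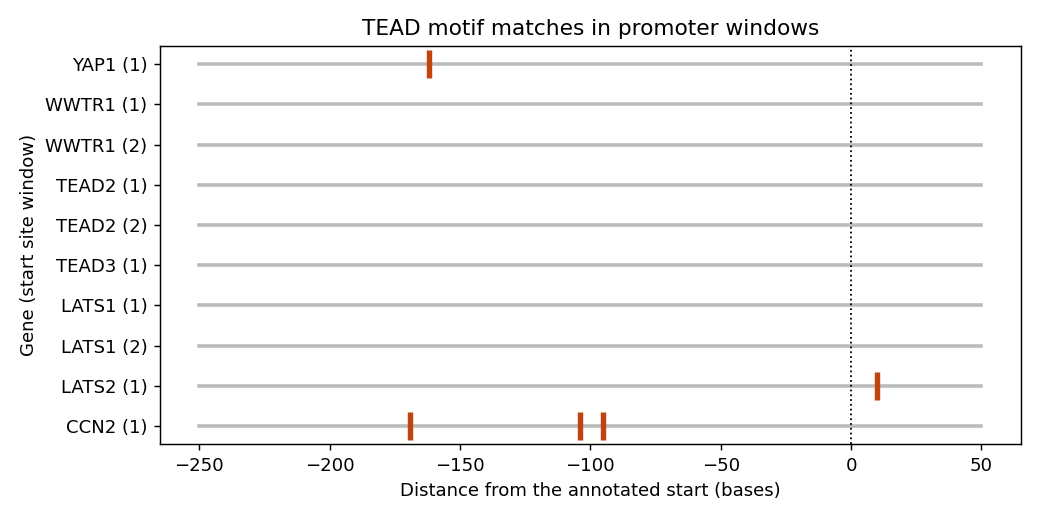
Each line is a promoter window of a gene (the number in brackets counts the annotated starts of that gene), with the distance from the start in bases on the x axis and a red mark where GGAATG begins on either strand. CCN2 has 3 marks, YAP1 and LATS2 have 1 each and the other windows have none.

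Values are log2 intensities, so a difference of 1 is a doubling. Array medians lay between 6.23 and 6.27. As a guide to background, 359 probe sets of olfactory receptor genes, which breast cells are not known to express, had their median at 3.88 and their 95th percentile at 5.70. ELK3 read 10.85 and 10.82 on the control arrays against 8.34 and 8.33 after ELK3 KD (log2 fold change -2.50, standard error [SE] 0.07, adjusted p = 3.57e-05 by limma). Of 6 genes known to be high in MDA-MB-231 cells (VIM, CD44, MSN, PLAUR, CAV1, ANXA1), all lay above the olfactory receptor percentile in both groups. ESR1, the oestrogen receptor gene, which triple-negative cells lack, read 6.83 to 7.12 over the 4 arrays and did not pass the test, and PGR and CDH1 were in the background range. All 6 high genes were called lower in ELK3 KD cells, against 23.5% of all genes. Their summed levels were 14.82 to 14.84 in control and 13.06 to 13.10 in ELK3 KD arrays. HEK293 is the human embryonic kidney line from which many viral packaging cells derive. The summed level of 10 HEK293 markers was 9.73 to 9.79 in control and 12.65 to 12.72 in ELK3 KD arrays. Of these markers 5 were called higher and 0 lower, which is 50% called. Over all genes 49.5% were called in either direction and 26.0% were called higher. The 5 called higher, given as log2 fold changes, were NEFL (7.58), SOX11 (5.81), DPYSL3 (3.63), CKB (2.64) and LIN28B (1.27). In that order, the means of all their probe sets gave 8.08, 4.10, 3.82, 2.64 and 4.0045. The other 5 did not pass. PAX2, NEFM (0.16) and CRMP1 (-0.07) were in the background range, INA gave 0.10 and STMN2 gave -0.30. Genes of chromosome band 9p21, from which MDA-MB-231 cells are known to have lost CDKN2A, CDKN2B and MTAP, also differed: CDKN2A changed by 6.53 (4.22 as the mean of all its probe sets) and CDKN2B by 3.94. Of the 6 probe sets of MTAP, 5 were more than 4-fold higher, at 2.98 to 4.55, and their mean gave 2.99. Only the brightest was lower, at -0.45, and that call was lost without either control array (adjusted p = 0.0749 and 0.0924) or without ELK3 KD replicate 1 (adjusted p = 0.107). A difference between the cell populations and an effect of the shRNA cannot be told apart in this design, and this holds for every comparison given here.

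Most of the pathway genes were lower in ELK3 KD cells. CCN1 and CCN2 fell the most together with LATS2, YAP1 and WWTR1 fell by less than 2-fold, and the TEAD genes moved in both directions. By limma at an adjusted p under 0.05, 7 of the 10 genes were lower and 3 higher. Over all genes tested 23.5% were called lower, 26.0% were called higher and 49.5% were called in either direction. The control and ELK3 KD arrays did not overlap for any of the 10 genes, which also held for 76.2% of all genes. The 7 with both ELK3 KD values below both control values compare with 40.8% of all genes. The median log2 fold change was -0.67 over the 10 genes and -0.05 over all genes. Differences in RNA per cell and in the share of cells that express a gene cannot be told apart in bulk RNA.

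**Figure D2:**
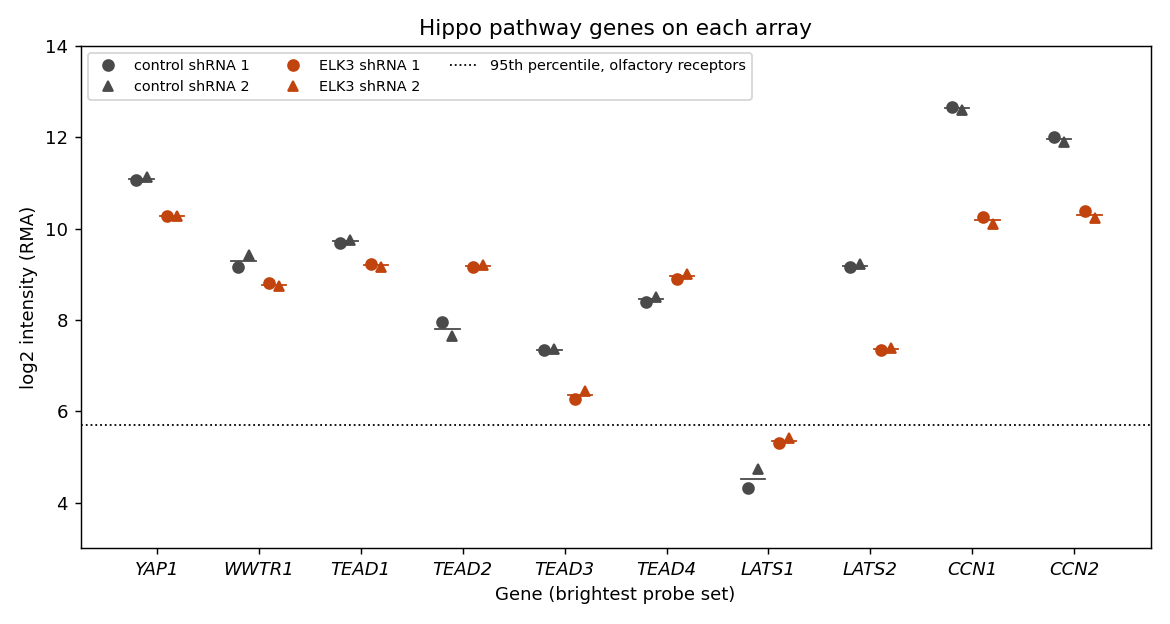
Log2 intensity of the brightest probe set of each gene (y axis) in control shRNA arrays (grey) and ELK3 shRNA arrays (red), with circles for replicate 1, triangles for replicate 2, short lines for group means and a dotted line at 5.70, the 95th percentile over olfactory receptors. The groups are apart for every gene, CCN1 shows the widest gap, TEAD2, TEAD4 and LATS1 are higher in the ELK3 shRNA arrays, and LATS1 alone lies under the dotted line.

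CCN1 encodes a secreted protein that binds integrins and promotes adhesion and migration. Its brightest probe set read 12.66 and 12.60 on the control arrays against 10.26 and 10.10 after ELK3 KD. Both ELK3 KD values lay more than 2 log2 units under both control values. The log2 fold change was -2.45 (SE 0.09, adjusted p = 6.61e-05 by limma), a 5.46-fold difference, and 288 of 18132 genes had a larger fall. By brightest probe set it was the 1 gene of the 10 that was more than 4-fold lower, against 2.32% of all genes. Dimmer probe sets of CCN2 also passed that line, at 4.05-fold and 4.81-fold. A second probe set of CCN1 gave -2.73, from 12.36 and 12.25 to 9.58 and 9.57.

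CCN2 encodes connective tissue growth factor, which promotes matrix production. Its brightest probe set read 12.01 and 11.90 on the control arrays against 10.39 and 10.23 after ELK3 KD (log2 fold change -1.65, SE 0.10, adjusted p = 0.000215 by limma). A larger fall was measured for 576 genes. The other probe sets of CCN2 gave -2.02 and -2.27, so its 3 probe sets fell by 3.13-fold or more. The brightest showed the smallest change, and its name marks it as one whose probes can match transcripts of more than 1 gene. All arrays of both CCN genes lay far above the olfactory receptor range. Of the other CCN family genes, CCN3, a member often described as growth-inhibiting, fell from 7.48 and 7.46 to 5.89 and 5.83 (log2 fold change -1.61, adjusted p = 0.000114 by limma). CCN4 read 3.31 and 3.11 on the control arrays against 2.75 and 2.90 after ELK3 KD, all in the background range, and its call (adjusted p = 0.0341) was lost when control replicate 1 or either ELK3 KD replicate was left out, and the mean of all its probe sets gave -0.24 (adjusted p = 0.0514). CCN5 and CCN6 did not pass the test and were also in the background range.

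YAP1, the main transcriptional coactivator of the pathway, read 11.07 and 11.12 on the control arrays against 10.27 and 10.28 after ELK3 KD. Replicates lay close together and the groups were far apart by comparison. The log2 fold change was -0.82 (SE 0.07, 95% interval -1.01 to -0.64, adjusted p = 0.00075 by limma), a 1.77-fold difference. Of its 8 probe sets, 7 were called lower, at log2 fold changes from -0.68 to -0.98. The other, the dimmest of them, gave -0.29 (adjusted p = 0.0629), with 6.75 and 6.93 on the control arrays and 6.60 and 6.50 after ELK3 KD.
WWTR1, the gene of the paralogue TAZ, read 9.16 and 9.41 on the control arrays against 8.81 and 8.74 after ELK3 KD. The control arrays were further apart than those of YAP1. The log2 fold change was -0.51 (SE 0.11, 95% interval -0.79 to -0.23, adjusted p = 0.0153 by limma), and the call was lost without ELK3 KD replicate 1 (adjusted p = 0.0819) or replicate 2 (adjusted p = 0.109). The other 2 probe sets of WWTR1 gave -0.73 and -0.67, with adjusted p = 0.00136 and 0.00329 over all probe sets. All 3 probe sets of WWTR1 were thus called lower.

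The TEAD genes encode the DNA-binding partners of YAP and TAZ. TEAD1 and TEAD3 were lower, while TEAD2 and TEAD4 were higher. TEAD2, known in mice for its expression in the early embryo, read 7.95 and 7.66 on the control arrays against 9.16 and 9.21 after ELK3 KD. The log2 fold change was 1.38 (SE 0.12, adjusted p = 0.000685 by limma), a 2.60-fold difference. All 4 probe sets of TEAD2 were called higher, at 0.62 to 1.38. TEAD3 was read from a single probe set, at 7.34 and 7.36 on the control arrays against 6.27 and 6.44 after ELK3 KD (log2 fold change -0.99, SE 0.09, adjusted p = 0.000758 by limma). The ELK3 KD values of TEAD3 lay under those of ESR1 (6.83 to 7.12), so background may limit its difference. TEAD4, also with a single probe set, read 8.40 and 8.51 on the control arrays against 8.90 and 9.02 after ELK3 KD. Its log2 fold change was 0.50 (SE 0.09, adjusted p = 0.00695 by limma), and without ELK3 KD replicate 2 the adjusted p was 0.0657.
TEAD1 read 9.69 and 9.75 on the control arrays against 9.23 and 9.17 after ELK3 KD at its brightest probe set (log2 fold change -0.52, SE 0.07, adjusted p = 0.00374 by limma). The name of this probe set marks it as one whose probes can match transcripts of more than 1 gene. The other 2 probe sets of TEAD1 gave -0.16 and -0.04 and did not pass (adjusted p = 0.253 and 0.867), the dimmer one with both group means in the background range. The fall of TEAD1 thus rests on 1 of 3 probe sets. The mean of all its probe sets gave -0.24 (adjusted p = 0.0441).

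LATS2 was lower, while LATS1 was called higher at values in the background range. LATS2 read 9.15 and 9.23 on the control arrays against 7.35 and 7.40 after ELK3 KD (log2 fold change -1.81, SE 0.08, adjusted p = 8.99e-05 by limma), a 3.52-fold difference. A second probe set of LATS2 gave -1.96, from 6.74 and 7.22 to 5.19 and 4.85. The dimmest gave -0.48 (adjusted p = 0.0619), with all arrays under 5.70. LATS1 was dim in both groups: its brightest probe set read 4.33 and 4.73 on the control arrays against 5.30 and 5.41 after ELK3 KD, all under the olfactory receptor percentile of 5.70. It was called higher (log2 fold change 0.83, SE 0.15, adjusted p = 0.00826 by limma). The call was lost without ELK3 KD replicate 1 (adjusted p = 0.056) or replicate 2 (adjusted p = 0.0732). The other 2 probe sets of LATS1 gave 0.60 and -0.13 and did not pass, and the mean of all 3 gave 0.43. Background limits what these values can say of LATS1.

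**Figure D3:**
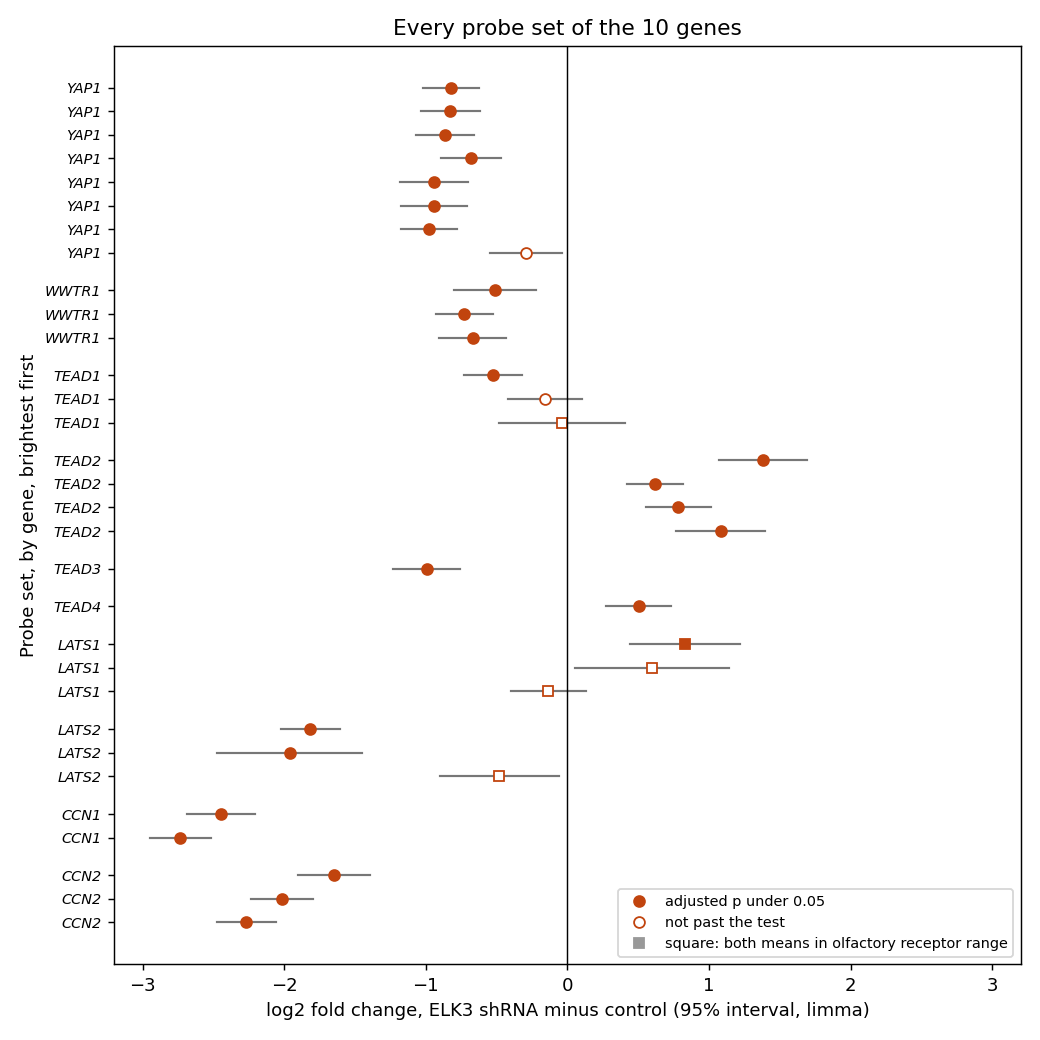
Log2 fold change, ELK3 shRNA minus control, of all 31 probe sets (points) with 95% intervals by limma (lines), grouped by gene with the brightest first. Filled symbols passed an adjusted p under 0.05, open symbols did not, and squares are probe sets with both group means in the olfactory receptor range. The CCN1, CCN2 and WWTR1 points are all filled and left of 0, the 4 TEAD2 points are all filled and right of 0, and TEAD1 and LATS1 each have 1 filled point.

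Counted by probe set, 19 of 31 were lower, 6 were higher and 6 did not pass. Over all 44988 probe sets naming a single gene, 24.3% were called lower and 24.6% higher, and 48.9% in either direction. Among the 6 that did not pass, 4 had both group means in the background range, the exceptions being the dimmest probe set of YAP1 and the middle one of TEAD1. Probe sets of a gene share its transcripts and are not replicates of each other.

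Other genes known to respond to YAP and TAZ were mostly lower as well. Of 19 such genes, not counting CCN1, CCN2 and LATS2, 16 were called lower, 0 were called higher by limma and 3 did not pass, with a median log2 fold change of -1.57. Over all genes 23.5% were called lower. Where both group means lay above the olfactory receptor percentile, 10 of 13 were lower. The list was drawn up with earlier results of these arrays known, and among them the falls of AXL and NT5E, so its count is no independent evidence of direction. ANKRD1, a cardiac ankyrin repeat protein, went from 10.05 and 9.73 to 2.88 and 3.18 (log2 fold change -6.86, adjusted p = 2.36e-05 by limma). AXL, a receptor tyrosine kinase, changed by -7.74 and NT5E, the ecto-nucleotidase CD73, by -8.24. The means of all their probe sets gave -6.16 for AXL and -7.06 for NT5E. The ELK3 KD values of ANKRD1, AXL and NT5E were in the background range, which limits the size of these differences. F3, the tissue factor that starts coagulation, went from 11.61 and 11.69 to 6.41 and 6.42. MYOF, a membrane repair protein, went from 11.04 and 11.24 to 6.32 and 6.39. All arrays of F3 and MYOF were above 5.70, but their ELK3 KD values lay under those of ESR1 (6.83 to 7.12). Background may therefore limit the differences of F3 and MYOF too. The same holds for other genes with a group under the ESR1 values, among them TEAD3 and CCN3 after ELK3 KD and NF2 in control arrays. FJX1, ARHGEF17 and FOXF2 did not pass, at log2 fold changes of -0.34, 0.02 and 0.19. In the promoter windows GGAATG occurred in 7 of the 16 windows of 14 of these genes (43.8%, against 14% of all windows). None held 3 matches. These genes were chosen as known targets of YAP and TAZ, which act through TEAD, so this share is no independent evidence of TEAD binding. Windows of the same gene were counted separately.

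**Figure D4:**
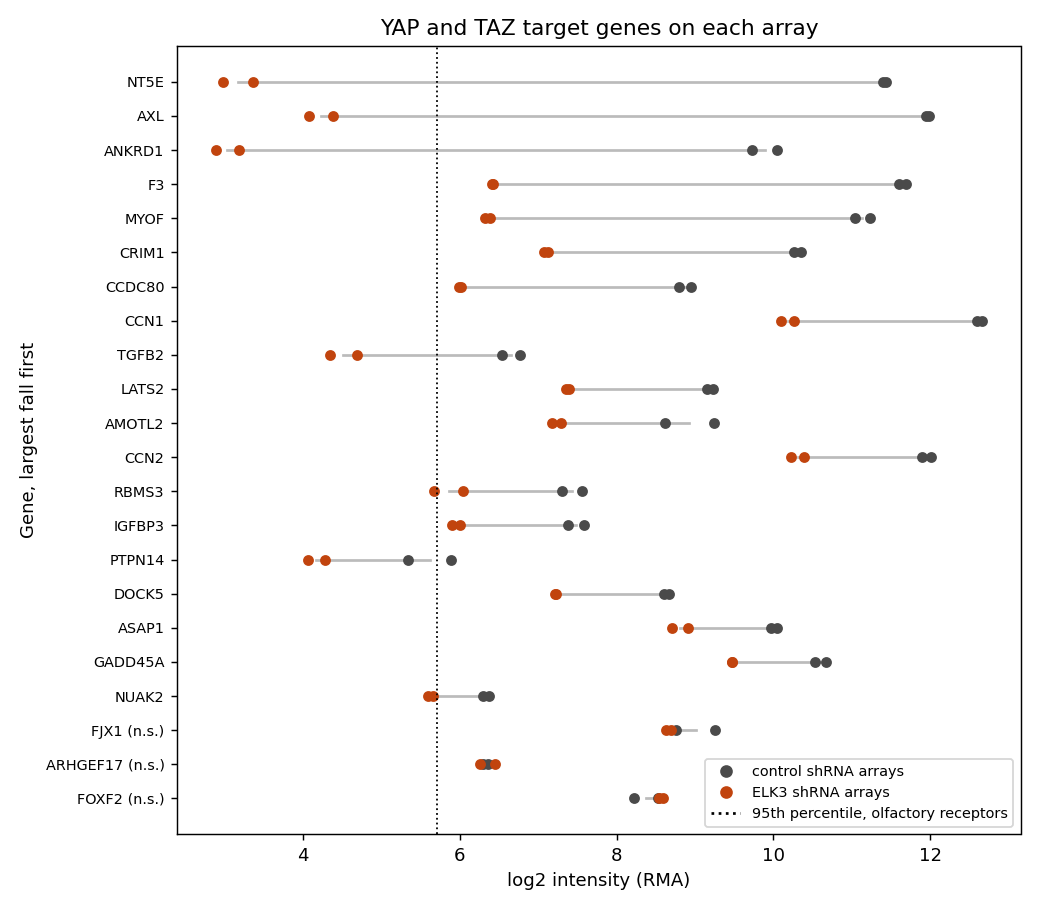
Log2 intensity (x axis) of 22 YAP and TAZ target genes, CCN1, CCN2 and LATS2 among them, in each control shRNA array (grey) and ELK3 shRNA array (red), ordered by log2 fold change, with a dotted line at 5.70. For 19 genes the test was passed and the red points lie left of the grey ones. FJX1, ARHGEF17 and FOXF2 are marked n.s. because they did not pass.

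Of 12 genes for kinases and scaffolds of the Hippo core and its upstream kinases, 6 were lower, 2 higher and 4 did not pass, against 23.5% lower and 26.0% higher over all genes. Their median log2 fold change was -0.25, against -0.05 over all genes. STK3 (MST2), which phosphorylates LATS, went from 7.91 and 8.02 to 8.48 and 8.48 (log2 fold change 0.51, adjusted p = 0.00485 by limma, or 0.051 and 0.0506 without ELK3 KD replicate 1 or 2, and 0.25 as the mean of all its probe sets), whereas STK4 (MST1) changed by -0.33. SAV1, the scaffold that joins MST to LATS, gave -0.13 and did not pass. MOB1A, a LATS coactivator, changed by -0.50 and its paralogue MOB1B gave -0.16, which did not pass. The kinase genes TAOK3 and STK38 (NDR1) changed by -2.48 (to a mean in the background range) and -1.34, STK38L (NDR2) by 0.61 (adjusted p = 0.0522 without ELK3 KD replicate 2) and the adaptor RASSF1 by -0.55. Fewer of the 12 were called when control replicate 1 or either ELK3 KD replicate was left out. Fewer of all genes were called then too, and whether that accounts for the loss was not tested.

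Of 12 regulators at junctions and at the membrane, 7 were lower, 4 were higher and 1 did not pass, against 23.5% lower and 26.0% higher over all genes. Their median log2 fold change was -0.59. NF2 (merlin), which brings LATS to the membrane, read 6.58 and 6.48 on the control arrays against 8.71 and 8.67 after ELK3 KD (log2 fold change 2.16, SE 0.08, adjusted p = 6.61e-05 by limma), or 1.29 as the mean of all its probe sets. AMOT, an angiomotin that binds YAP, went from 4.17 and 4.48, in the background range, to 7.36 and 7.15. Its log2 fold change was 2.93, or 2.19 as the mean of all its probe sets. In contrast, the KIBRA family genes WWC1, WWC2 and WWC3 changed by -1.72, -1.07 and -2.39, and FRMD6 (Willin) by -2.20. The mean of all probe sets of WWC1 gave -1.11. PTPN14, which is in this list and also among the target genes, had all group means in the background range. Fewer of the 12 were called when any 1 array was left out, and with a block for replicate number. Fewer of all genes were called in those fits too, and whether that accounts for the loss was not tested.
Of 7 LATS inhibitors and TEAD cofactors, 1 was lower, 2 were higher and 4 did not pass. The 3 called of 7 were 42.9%, no more than the 49.5% called over all genes, and the median log2 fold change was -0.20. AJUBA, a LIM protein that binds and inhibits LATS kinases, went from 10.21 and 10.34 to 8.37 and 8.41 (log2 fold change -1.89, adjusted p = 0.000101 by limma). VGLL4, which competes with YAP for TEAD, went from 7.24 and 7.32 to 8.25 and 8.21 (log2 fold change 0.95, adjusted p = 0.000561 by limma). VGLL3, another TEAD partner, had control arrays at 4.84 and 3.54 and ELK3 KD arrays at 5.94 and 5.84, and its call (adjusted p = 0.0242) was lost without ELK3 KD replicate 1 (adjusted p = 0.134) or replicate 2 (adjusted p = 0.117). Its log2 fold change of 1.70 came from a probe set that can match more than 1 gene. The change was 0.78 as the mean of all probe sets and 1.05 without control replicate 2. Without such probe sets it turned to -0.25 (adjusted p = 0.198 by limma).

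CCN1 and CCN2 are also known targets of SRF with its MRTF cofactors. Of 14 genes of that group, SRF and the MRTF genes included, 9 were lower, 2 higher and 3 did not pass, against 23.5% lower and 26.0% higher over all genes, with a median log2 fold change of -0.81. SRF itself went from 9.18 and 9.33 to 8.18 and 8.38 (log2 fold change -0.98, adjusted p = 0.00147 by limma), while MRTFB rose by 1.22 and MRTFA gave 0.12, which did not pass. The calponin CNN2 changed by -2.02, the focal adhesion protein gene ZYX by -1.32, the myosin light chain gene MYL9 by -1.30 and TAGLN by -1.30 (to a mean in the background range), whereas ACTA2, a smooth muscle actin, rose by 2.43 from control values in the background range. Without probe sets that can match more than 1 gene, 6 of the 11 genes left were called, 1 higher and 5 lower. Of the 16701 genes tested in that fit, 4152 were called higher and 3776 lower. ACTA2 then gave 0.03 (adjusted p = 0.825) and CNN2 gave -3.17, while the mean of all probe sets of ACTA2 gave 0.74. The part of SRF and of YAP, TAZ and TEAD in the falls of CCN1 and CCN2 was not tested.

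**Figure D5:**
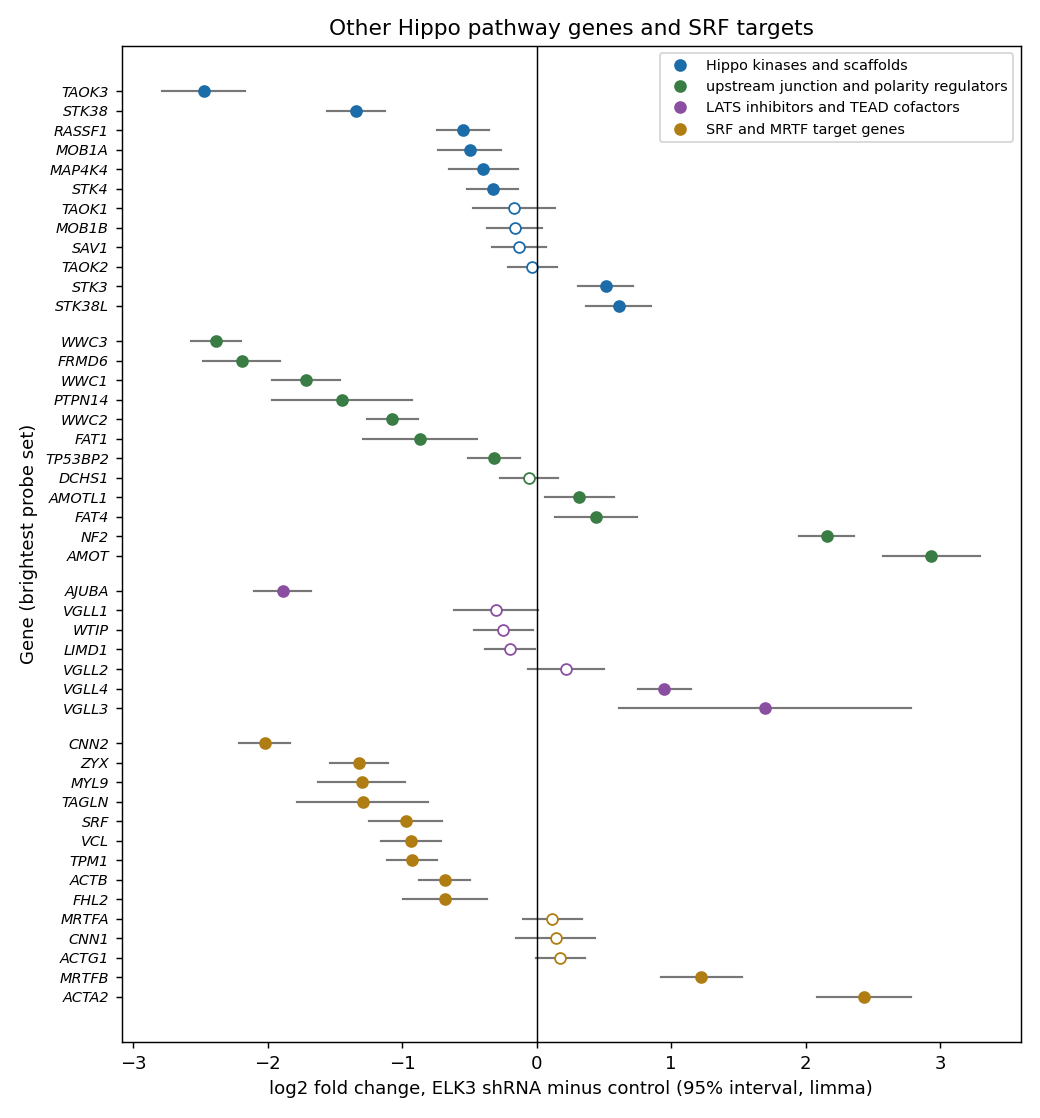
Log2 fold change, ELK3 shRNA minus control, of the brightest probe set of each gene (points) with 95% intervals by limma (lines), for kinases and scaffolds (blue), junction regulators (green), LATS inhibitors and TEAD cofactors (purple) and SRF and MRTF genes (ochre). Filled points passed an adjusted p under 0.05 and open points did not. TAOK3, WWC3 and FRMD6 lie farthest left and AMOT, ACTA2 and NF2 farthest right.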

How the data were processed

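Gene expression was measured on 4 arrays. The authors deposited log2 intensities of 49395 probe sets, made with RMA (background correction, quantile normalization, summary per probe set) in Affymetrix Expression Console per the labels, with no version given. The paper's methods describe an Illumina BeadChip instead, but the deposited identifiers have the Affymetrix form. RMA compresses low values and differences, and quantile normalization hides changes in total RNA. No detection calls and no scanner files were used here. Probe sets naming a single gene (44988) were kept, and symbols were updated by gene ID through RefSeq of GRCh38.p14 (44961 matched). Each gene was read from its brightest probe set. The group difference was fitted by lmFit and eBayes of limma 3.58.1 (R 4.3.3, no block) with Benjamini-Hochberg adjustment at 0.05 over 18132 genes or, for single probe sets, over 44988, and the fit was tested on simulated data. With 2 arrays against 2 an exact two-sided permutation test cannot give a p below 0.333, and the number of arrays limits the precision. Figures used matplotlib 3.10.9 in Python 3.11.15.

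Genes named are all 10 pathway genes, ELK3, and up to 5 called genes per list with the largest change and no overlap of groups. Where fewer than 2 were called, the 2 brightest were named. ESR1, PGR and CDH1 were named outside that rule, as cell type markers. STK4, SAV1, MOB1A, MOB1B, WWC2, PTPN14, CCN5, CCN6, FJX1, ARHGEF17, FOXF2, SRF, MRTFA, MRTFB, VIM, PAX2, NEFM, CRMP1, INA and STMN2 were added to the names with their values in view. The pathway genes, the lists and the olfactory receptor guide were chosen with earlier results of these data known. The alternatives tried were the mean of all probe sets, leaving out cross-hybridising probe sets or dim genes, centring or quantile normalization again, an intensity trend in eBayes, the replicate block, leave-one-out fits and the methods' t-test.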

Additional observations from a re-analysis of the deposited data

How the results depend on the processing

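The directions of all 10 pathway genes held under every alternative run. Of 129 values of these genes under the alternatives, 118 kept their side of the threshold and 11 no longer passed, the latter for WWTR1, TEAD1, TEAD4 and LATS1. TEAD1 was lost without probe sets that can match more than 1 gene (log2 fold change -0.16, adjusted p = 0.251 by limma). The labels give the groups the same replicate numbers, but deviations of same-numbered arrays correlated at 0.01 over genes. The replicate block left 3 higher and 7 lower among the 10 genes and lowered the number of other CCN genes called from 2 to 1. The mean of all probe sets also gave 1 for that list and turned MTAP to 2.99. Without cross-hybridising probe sets VGLL3 turned to -0.25 and 6 SRF and MRTF targets were called. Above the median level 3 HEK293 markers and 1 gene of 9p21 were called, since fewer genes were tested there, and no other CCN gene was left to test. Centring again called 5 LATS inhibitors and TEAD cofactors in place of 3. With the methods' t-test after Benjamini-Hochberg adjustment 2574 genes were called higher and 2086 lower. Among the pathway genes 1 gene was called higher, and so were 2 of the 31 probe sets of all 10. Called in either direction were 5 kinases and scaffolds, 6 junction regulators, 1 other CCN gene and 6 SRF and MRTF targets. When the arrays were left out in turn, genes called higher ran from 3080 to 4388 and genes called lower from 2430 to 3976, with the lowest counts without ELK3 KD replicate 1. Pathway genes called higher ran from 1 to 3 (1 without ELK3 KD replicate 2), kinases and scaffolds from 3 to 8, junction regulators from 7 to 8, LATS inhibitors and TEAD cofactors from 2 to 4, other CCN genes from 1 to 2 and 9p21 genes from 2 to 3. With 1 array left in a group, that array was taken to vary like the other group. The cause of these changes was otherwise not tested. Differences with a group mean under 5.70 are limited by background, and those with a group mean under the ESR1 values (6.83 to 7.12) may be too.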
